A study of Mus musculus with 11 samples.

Results

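The Kruppel-like factor (KLF) family members described here are 8 genes chosen by name, Klf2, Klf3, Klf4, Klf5, Klf6, Klf9, Klf10 and Klf13, out of 48952 genes in the bulk table and 32285 in each single-cell matrix. All 8 were present in both data types, and all 8 were among the 14185 genes that passed the filter on low bulk counts. The cells were mouse naive extra-embryonic endoderm (nEnd), a stem cell culture grown on feeder fibroblasts in RACL, a medium with Activin A, CHIR99021 and LIF, as a model of the primitive endoderm (PrE). For bulk RNA-seq, untreated nEnd of an OCT4-mCherry reporter line was sorted by flow cytometry on mCherry and surface PDGFRA into Pdgfra+, double-positive (DP) and Oct4+ fractions, with 3 libraries of each. For single-cell RNA-seq, nEnd of the line EPUc, in which both copies of Oct4 (Pou5f1) can be deleted with 4-hydroxytamoxifen (4OHT), was sorted for PDGFRA and cultured without or with 4OHT and then for some days more, giving 1 droplet library per condition. Both reporter and deletion cultures were each a single line, and the study's legends call the 3 libraries of a fraction biological replicates, while the labels do not say which cultures or sorts they came from. The p-values below measure the spread between these libraries.

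KLF proteins are zinc finger transcription factors that bind GC-rich and CACCC sequences through a conserved C-terminal domain, and they differ mainly in the N-terminal parts that recruit activators or repressors. Klf2, Klf4 and Klf5 are known as partly interchangeable factors of naive pluripotency, with Klf4 a direct target of LIF and STAT3 signalling and Klf2 acting downstream of other routes. Klf5 is also needed for the extra-embryonic lineages of the blastocyst. Klf3 represses through CTBP, Klf9, Klf10 and Klf13 through SIN3A, and Klf6 and Klf10 are quickly induced by growth factors, Klf10 most of all by the TGF-beta family.

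In the GENCODE annotation of GRCm38, the genes lie apart on separate chromosomes. Klf2 (ENSMUSG00000055148) spans chr8:72319033-72321656 on the plus strand, Klf4 (ENSMUSG00000003032) chr4:55527143-55532466 on the minus strand, and Klf6 (ENSMUSG00000000078) chr13:5861482-5870394 on the plus strand. Klf3 lies at chr5:64803388-64832901 (plus), Klf5 at chr14:99298691-99315036 (plus), Klf9 at chr19:23141226-23168134 (plus), Klf10 at chr15:38291463-38300706 (minus) and Klf13 at chr7:63886351-63938915 (minus).

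The 250 bases before the start of transcription set by RefSeq are shown for Klf2, Klf6 and Klf4. The first pair differed most between the fractions, in opposite directions. Klf4 was the member with the highest level per length in both PDGFRA-positive fractions. Capitals mark the letters CACCC or GGGCGG on either strand, the sequences to which KLF and SP proteins bind. They are from RefSeq on GRCm38.p6 and read 5′ to 3′ along each gene's strand, at chr8:72318812-72319061, chr13:5861239-5861488 and chr4:55532476-55532725.
Klf2: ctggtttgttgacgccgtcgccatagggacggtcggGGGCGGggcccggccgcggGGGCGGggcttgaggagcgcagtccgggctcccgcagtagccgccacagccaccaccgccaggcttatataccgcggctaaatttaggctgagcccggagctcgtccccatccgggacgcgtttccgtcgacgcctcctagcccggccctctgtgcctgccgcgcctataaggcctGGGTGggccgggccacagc
Klf6: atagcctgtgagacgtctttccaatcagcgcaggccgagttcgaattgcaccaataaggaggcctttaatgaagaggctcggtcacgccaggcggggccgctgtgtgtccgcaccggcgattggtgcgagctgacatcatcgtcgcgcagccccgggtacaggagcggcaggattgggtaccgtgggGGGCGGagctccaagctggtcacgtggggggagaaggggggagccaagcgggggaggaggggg
Klf4: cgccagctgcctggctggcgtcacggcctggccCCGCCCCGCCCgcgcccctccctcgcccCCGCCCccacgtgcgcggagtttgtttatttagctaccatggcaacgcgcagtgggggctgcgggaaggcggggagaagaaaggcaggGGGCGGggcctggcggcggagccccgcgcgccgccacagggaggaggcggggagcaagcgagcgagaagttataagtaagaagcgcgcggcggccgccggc
The Klf2 stretch held 1 CACCC and 2 GGGCGG, the Klf6 stretch 1 GGGCGG, and the Klf4 stretch 4 GGGCGG, of which one pair shared a base. Of the 6 members in the promoter table, which has no entry for Klf5 and Klf10, 4 held CACCC (52.01% of all 32851 promoters did) and 5 held GGGCGG (32.74% of all). The most, 5 CACCC and 6 GGGCGG with 1 overlap between them, were in Klf3. By the GENCODE spans given above, the stretches of Klf2, Klf3 and Klf6 reach past the gene start. The marked CACCC of Klf2 and some of the Klf3 matches lie in that overlap. The STAT letters TTCNNNGAA were found once, before Klf9 (7.02% of all promoters held them), and the octamer ATGCAAAT before none (1.60% of all). All 6 were GC-rich, at 59.6% to 78.4% against a median of 52.4%, and a match of letters is a description and not a binding site.

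Sequencing depth ran from 8019631 to 11642571 counted reads per bulk library, and the least abundant member, Klf2 in Pdgfra+ cells, still had 12 to 17 reads per library. The single-cell matrices held 6896 barcodes without 4OHT and 7283 with it, of which 5077 and 6266 cells were used, with medians of 17747 and 12684.5 UMIs (unique molecular identifiers) per cell. The libraries shared 21 barcodes. The defining markers were where the labels put them. Summed over 13 endoderm genes, Pdgfra+ libraries held 44490 to 60330 CPM (read counts scaled to a common library total), DP libraries 32330 to 46160 and Oct4+ libraries 212 to 573, while 11 epiblast genes summed to 157 to 297, 824 to 1537 and 3469 to 4618. Feeder fibroblast genes (11) summed to 51.3 to 143, 18.6 to 62.6 and 21.1 to 173 CPM, and 8 trophectoderm genes to 18.7 to 21.5, 36.5 to 44.4 and 28.5 to 32.8.

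The first question was how much of each KLF transcript each sorted fraction held. Levels were divided by the kilobases of all annotated exons of a gene, which makes genes only roughly comparable. Klf4 led in Pdgfra+ cells at 129 ± 47.4 CPM per kb (SD, n = 3), followed by Klf6 at 52.0 ± 7.44. Klf5 at 22.9 ± 5.14, Klf9 at 18.9 ± 3.62, Klf10 at 16.4 ± 4.44 and Klf13 at 12.2 ± 4.34 came next. Klf3 at 5.83 ± 0.932 and Klf2 at 0.837 ± 0.109 were the lowest. The Klf4 range lay above the Klf6 range and that above the Klf5 range, whereas Klf5 overlapped Klf9, Klf9 overlapped Klf10 and Klf10 overlapped Klf13. In Oct4+ cells the order was headed by Klf2 at 136 ± 33.8 CPM per kb, whose range overlapped that of Klf4 at 89.9 ± 34.8, and Klf6 stood in sixth place at 14.6 ± 3.36. In DP cells Klf4 stood first at 105 ± 32.4 and Klf2 last at 3.93 ± 0.407, the same ends of the order as in Pdgfra+ cells. The exon lengths join all GENCODE transcripts of a gene, whether or not these cells express them. They may also not be the ones used for counting.

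**Figure D1:**
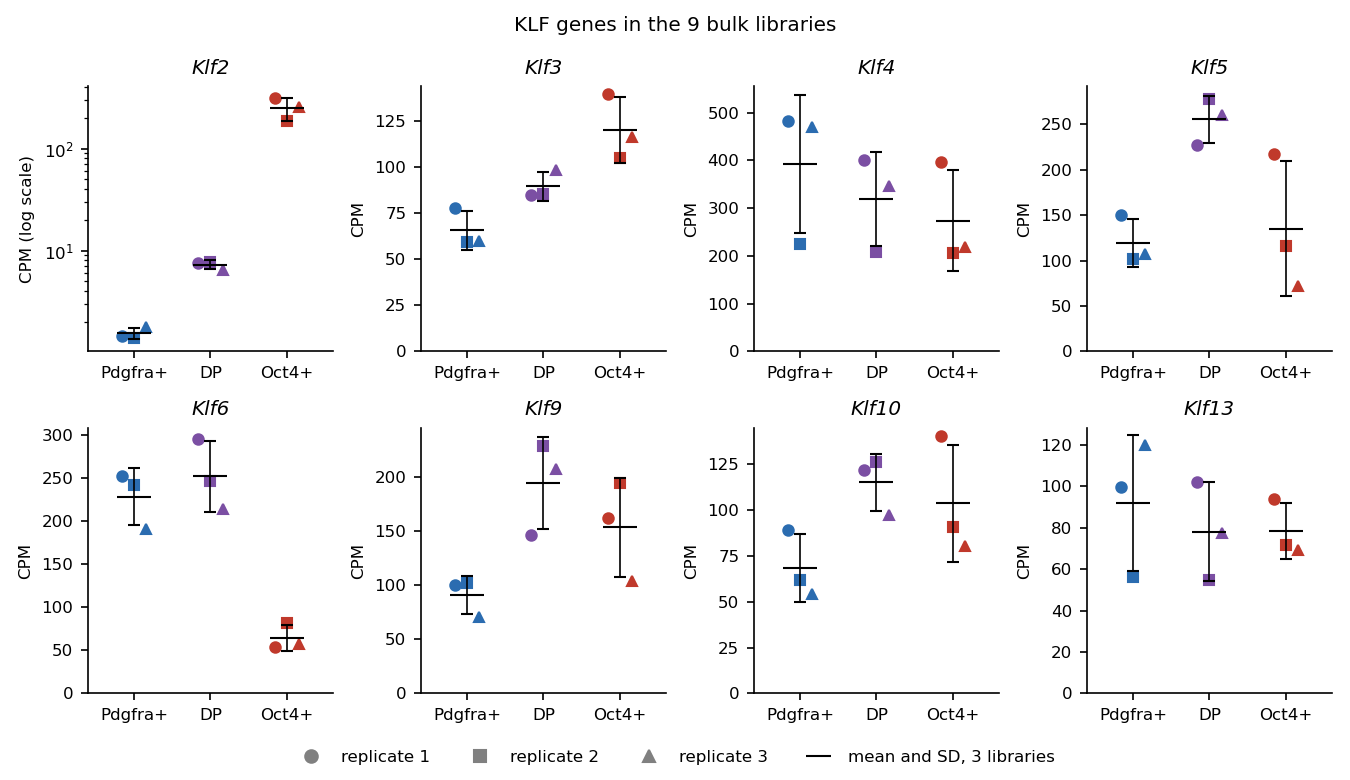
CPM of the 8 KLF genes (y axis, log scale for Klf2 and linear from 0 for the rest) in Pdgfra+, DP and Oct4+ libraries (x axis). Symbols are single libraries by replicate number, and bars give the mean and SD of 3 libraries. Klf2 rises in separate steps from 1.40 to 1.77 CPM in Pdgfra+ to 187 to 312 in Oct4+ libraries, and Klf6 in Oct4+ libraries, at 54.0 to 81.1 CPM, lies below all others.

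Klf2 differed most between the 3 fractions. Its level was 1.47, 1.40 and 1.77 CPM in Pdgfra+ replicates 1, 2 and 3, 7.61, 7.79 and 6.41 CPM in DP, and 312, 187 and 254 CPM in Oct4+. No library of one fraction overlapped those of another. Klf2 was 161-fold higher in Oct4+ than in Pdgfra+ cells (log2 fold change 7.33, SE 0.26, edgeR quasi-likelihood test with Benjamini-Hochberg adjustment, adjusted p = 2.73e-07) and 34.5-fold lower in DP than in Oct4+ cells (log2 fold change -5.11, SE 0.22, adjusted p = 1.29e-06). Between DP and Pdgfra+ cells the difference was 4.67-fold (log2 fold change 2.22, SE 0.25, adjusted p = 0.00725). The DP level was 2.90% of the Oct4+ level. Across the 11 epiblast markers the same share ran from 2.01% (Eras) to 152% (Dnmt3l) with a median of 4.79%, and it was 2.98% for Nanog and 2.57% for Tdgf1. The 5 markers of two-cell-like cells, which summed to 171 to 690 CPM in Oct4+ and 3.24 to 10.6 CPM in DP libraries, had shares of 0.981% to 5.16%. The part of Oct4+ cells in the Klf2 reads of the DP fraction was not tested. In such bulk fractions, fewer cells with a transcript and less of it per cell cannot be told apart.

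Klf4 and Klf5, the other pluripotency-associated members, did not follow Klf2. Klf4 was at 482, 226 and 470 CPM in Pdgfra+, 400, 209 and 347 in DP and 397, 207 and 219 in Oct4+ replicates 1 to 3. Replicate 2 was the lowest of each fraction, and all 3 fractions overlapped. None of its comparisons passed the test, with log2 fold changes of -0.30 (SE 0.35) for DP against Pdgfra+, 0.22 (SE 0.35) for DP against Oct4+ and -0.52 (SE 0.35) for Oct4+ against Pdgfra+. Klf5 was at 150, 101 and 107 CPM in Pdgfra+, 227, 278 and 261 in DP and 217, 116 and 72.5 in Oct4+ libraries. Every DP library was above every other one, and the Oct4+ libraries spanned the widest range. Klf5 was higher in DP than in Oct4+ cells (log2 fold change 0.92, SE 0.33, edgeR adjusted p = 0.0376), a call lost without DP replicate 2 or 3 or Oct4+ replicate 2 or 3 (adjusted p = 0.0693 to 0.104). Against Pdgfra+ its log2 fold change was 1.10 (SE 0.33) and the adjusted p = 0.0762, which became 0.0484 when the replicate number, which pairs DP with Pdgfra+ libraries, was a block.

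Klf6 was the reverse of Klf2. It stood at 252, 242 and 191 CPM in Pdgfra+, 296, 246 and 214 in DP and 54.0, 81.1 and 57.5 in Oct4+ libraries. Pdgfra+ and DP libraries overlapped, and all 6 were above the Oct4+ libraries. The level was 3.56-fold lower in Oct4+ than in Pdgfra+ cells (log2 fold change -1.83, SE 0.20, edgeR adjusted p = 3.47e-05) and 3.93-fold higher in DP than in Oct4+ cells (log2 fold change 1.97, SE 0.20, adjusted p = 3.16e-05). DP and Pdgfra+ cells differed by 0.14 (SE 0.19) on the log2 scale, which did not pass.

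Among the members that act mainly as repressors, Klf9 and Klf3 changed between fractions. Klf9 was at 100, 102 and 71.0 CPM in Pdgfra+, 147, 230 and 208 in DP and 163, 195 and 104 in Oct4+ libraries. DP lay above Pdgfra+ without overlap, by 2.14-fold (log2 fold change 1.10, SE 0.25, edgeR adjusted p = 0.0353), and Oct4+ above Pdgfra+ by 1.69-fold (log2 fold change 0.76, SE 0.25, adjusted p = 0.0230). The first call was lost without any 1 of the 3 Pdgfra+ libraries or without DP replicate 2 or 3 (adjusted p = 0.0703 to 0.133), and the second without Pdgfra+ replicate 3 or Oct4+ replicate 1 or 2 (adjusted p = 0.0630 to 0.0963). Klf3 was at 77.6, 59.1 and 59.9 CPM in Pdgfra+, 84.8, 85.0 and 98.4 in DP and 140, 105 and 116 in Oct4+ libraries, 3 groups without overlap. Its Oct4+ level was 1.83-fold the Pdgfra+ level (log2 fold change 0.87, SE 0.16, edgeR adjusted p = 0.000869). DP was lower than Oct4+ (log2 fold change -0.43, SE 0.16, adjusted p = 0.0410), which was not called without DP replicate 1, 2 or 3, Oct4+ replicate 1 or 3, or Pdgfra+ replicate 2 or 3 (adjusted p = 0.06 to 0.156). The step from Pdgfra+ to DP did not pass (log2 fold change 0.45, SE 0.16, adjusted p = 0.117).

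Klf10 and Klf13 had no call in the 3 comparisons, but Klf10 lay near the threshold in both comparisons with Pdgfra+ cells. Klf10 was at 89.2, 61.9 and 53.9 CPM in Pdgfra+, 122, 126 and 97.4 in DP and 140, 90.8 and 80.1 in Oct4+ libraries. DP was above Pdgfra+ in all libraries (log2 fold change 0.75, SE 0.25, edgeR adjusted p = 0.0940), and with the replicate number as a block the difference passed (log2 fold change 0.78, adjusted p = 0.0280). Oct4+ against Pdgfra+ gave 0.60 (SE 0.24) with an adjusted p = 0.0520, which passed under 8 of 16 other settings, among them DESeq2 (0.0281) and no filter on low counts (0.0247), over a range of 0.0083 to 0.244. Klf13 was at 99.7, 56.1 and 120 CPM in Pdgfra+, 102, 54.5 and 77.5 in DP and 93.7, 71.9 and 69.1 in Oct4+ libraries. Its fractions overlapped throughout, and replicate 2 was the lowest of Pdgfra+ and DP, as for Klf4.

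**Figure D2:**
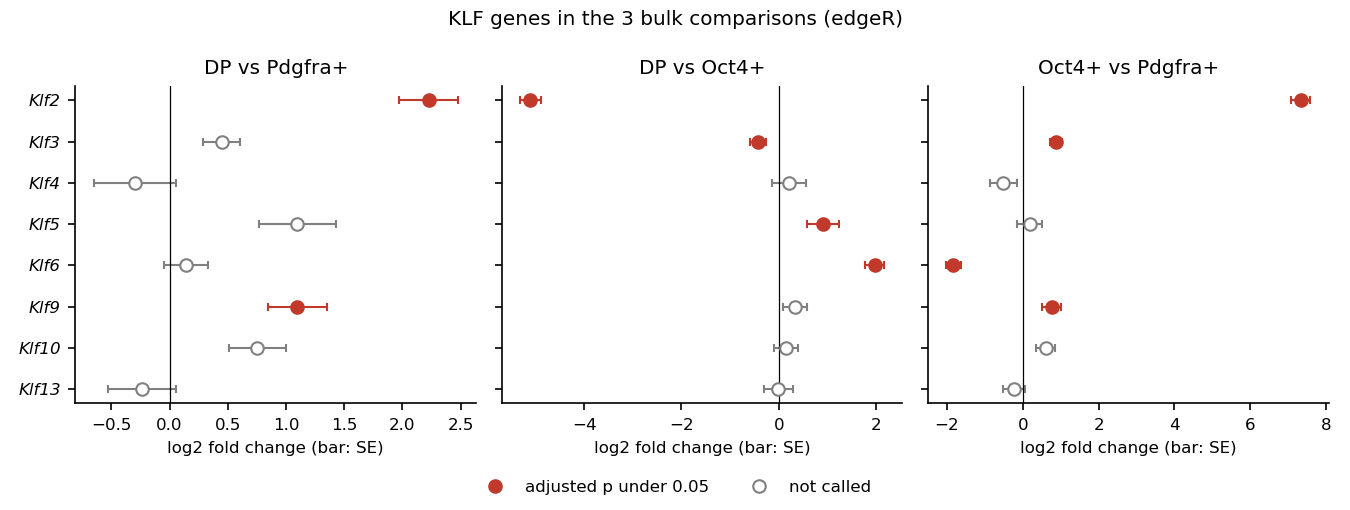
Log2 fold changes of the 8 KLF genes (x axis, bars are standard errors) in the 3 comparisons of bulk fractions, by gene (y axis). Filled red points have an edgeR adjusted p under 0.05 and open grey points do not. Klf2 and Klf6 lie on opposite sides of 0 in the panels against Oct4+ cells, and the x axes differ between panels.

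Counted together, 2 of the 8 members rose from Pdgfra+ to DP cells (Klf2 and Klf9) and 0 fell by edgeR (at an unadjusted p under 0.05, 5 and 0, and by DESeq2, 4 and 0), where 6.87% of all tested genes were called, 4.62% higher and 2.26% lower in DP. With the replicate block the count was 4, with Klf5 and Klf10 added. The libraries of 5 members (Klf2, Klf3, Klf5, Klf9 and Klf10) did not overlap, as for 34.2% of all genes. The median log2 fold change of the members was 0.60 against 0.02 over all genes. From Oct4+ to DP cells, Klf5 and Klf6 were higher and Klf2 and Klf3 lower, 4 of 8 where 56.2% of all genes were called (28.3% higher, 27.9% lower). Between Oct4+ and Pdgfra+ cells 3 were higher in Oct4+ (Klf2, Klf3 and Klf9) and 1 was lower (Klf6), again 4 of 8 against 63.2% of all genes (31.8% higher, 31.5% lower). Libraries did not overlap for Klf2, Klf3, Klf5 and Klf6 between DP and Oct4+ cells (62.6% of all genes) and for Klf2, Klf3, Klf6 and Klf9 between Oct4+ and Pdgfra+ cells (69.3% of all). With a log2 fold change over 1.5 asked for as well, Klf2 remained between DP and Pdgfra+ cells (3.89% of all genes did), and Klf2 and Klf6 in DP against Oct4+ (27.7% of all) and Oct4+ against Pdgfra+ cells (32.0% of all). The 3 comparisons share their libraries.

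For each member, the genes whose log2 CPM profile lay nearest over the 9 libraries were found among 9603 genes, by the mean absolute gap after centring each gene. Prune2 and Col18a1 lay nearest to Klf2, with gaps of 0.21 and 0.30 on the log2 scale beside a Klf2 span of 7.60. Zfp143 and Fastkd1 lay nearest to Klf3 (0.10 and 0.11), Tprn and Dip2c to Klf5 (0.20 and 0.22), Sri and Ctbs to Klf6 (0.10 and 0.12), Ipo5 and Slc16a6 to Klf9 (0.13 and 0.13), Slc17a9 and Mapk13 to Klf10 (0.16 and 0.17), and Hdac5 and Zfp87 to Klf13 (0.12 and 0.14). For Klf4 the nearest were Aplp1 (0.13) and another member, Klf13 (0.16).

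Of the other 9 KLF genes, 6 were tested, and Klf1, Klf14 and Klf17 had too few reads. Klf8, a CTBP-binding repressor, averaged 144 ± 18.1 CPM in Pdgfra+, 99.9 ± 32.3 in DP and 25.0 ± 12.5 in Oct4+ libraries (SD, n = 3), and it was lower in Oct4+ than in Pdgfra+ cells (log2 fold change -2.52, SE 0.35, edgeR adjusted p = 0.000155). Klf15, a metabolic regulator, was the 1 other KLF gene higher in DP than in Pdgfra+ cells (log2 fold change 1.68, SE 0.41, adjusted p = 0.0410), and it was higher in Oct4+ than in Pdgfra+ cells by 1.82 (SE 0.41, adjusted p = 0.00298). Klf12 was also called higher in Oct4+ cells (adjusted p = 0.00181), with 2 reads in all Pdgfra+ libraries together, 26 in DP and 142 in Oct4+. Klf8 was the 1 called between DP and Oct4+ cells, higher in DP by 1.99 (SE 0.34, adjusted p = 0.000787). Of the 6 tested, 1 was thus called between DP and Pdgfra+ cells (6.87% of all genes were) and 1 between DP and Oct4+ (56.2% were). Between Oct4+ and Pdgfra+ cells 2 were higher and 1 lower in Oct4+, where 63.2% of all genes were called. Klf7, Klf11 and Klf16 were not called in any comparison.

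The SP factors, which bind the same GC boxes, had 0 of 7 tested genes called between DP and Pdgfra+ cells by edgeR (6.87% of all genes were), 0 at an unadjusted p under 0.05 and 0 by DESeq2. Between Oct4+ and Pdgfra+ cells 5 were higher and 2 lower, where 63.2% of all genes were called (31.8% higher, 31.5% lower). Sp5, a WNT target, was higher in Oct4+ (log2 fold change 3.31, SE 0.70, edgeR adjusted p = 0.00207), Sp2 was higher by 0.98 (SE 0.13, adjusted p = 0.000148), and Sp6 and Sp8 were lower (-2.54, SE 0.43, adjusted p = 0.000541, and -2.06, SE 0.82, adjusted p = 0.0483).

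Partners and regulators of KLF proteins were compared in the same fit. Among 10 corepressors and coactivators, 0 were called between DP and Pdgfra+ cells by edgeR (6.87% of all genes were), 0 at an unadjusted p under 0.05 and 0 by DESeq2. Between Oct4+ and Pdgfra+ cells 4 were higher and 2 lower, near the 63.2% of all genes called there. The acetyltransferase gene Kat2b (log2 fold change 2.27, SE 0.18, edgeR adjusted p = 6.86e-06) and Ctbp2, whose protein binds Klf3 (1.23, SE 0.21, adjusted p = 0.000573), were higher in Oct4+. The coactivator gene Wwtr1 (-0.70, SE 0.15, adjusted p = 0.00238) and the other CTBP gene, Ctbp1 (-0.50, SE 0.14, adjusted p = 0.00848), were lower. Of 7 ubiquitin ligases that act on KLF proteins, 0 were called between DP and Pdgfra+ cells by edgeR (6.87% of all genes were), 1 passed an unadjusted p under 0.05 and 0 were called by DESeq2. Fbxw7 was higher (1.23, SE 0.17, adjusted p = 0.000186) and Smurf1 lower (-1.22, SE 0.14, adjusted p = 5.67e-05) in Oct4+ than in Pdgfra+ cells.

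The LIF to STAT3 pathway, the known route to Klf4, had 0 of 10 genes called between DP and Pdgfra+ cells by edgeR (6.87% of all genes were), 3 at an unadjusted p under 0.05 and 1 by DESeq2. In Oct4+ against Pdgfra+ cells, the LIF receptor gene Lifr (log2 fold change -0.77, SE 0.22, edgeR adjusted p = 0.0105), the kinase gene Jak2 (-1.58, SE 0.30, adjusted p = 0.00107) and Stat3 (-0.77, SE 0.17, adjusted p = 0.00272) were lower. Pim1 (3.71, SE 0.34, adjusted p = 1.41e-05) and Pim3 (1.14, SE 0.18, adjusted p = 0.000324), kinase genes induced by STAT3, were higher. Socs3 (-0.31, SE 0.37) and Bcl3 (-0.0055, SE 0.32), of the same pathway list, were not called. Of the 10 genes, 2 were thus higher, 3 lower and 5 not called, where 63.2% of all genes were called. Of 12 other naive pluripotency factors, 7 rose from Pdgfra+ to DP cells (4.62% of all genes did) and 10 were higher in Oct4+ than in Pdgfra+ cells (31.8% of all). Esrrb, a nuclear receptor of the naive network, was 3.78 higher on the log2 scale (SE 0.38, adjusted p = 0.00725) in DP than in Pdgfra+ cells, beside 2.22 for Klf2. Immediate early genes, to which Klf6 and Klf10 are often counted, had 0 of 12 called between DP and Pdgfra+ cells by edgeR, 0 at an unadjusted p under 0.05 and 0 by DESeq2. In Oct4+ against Pdgfra+ cells 8 were lower and 2 higher, where 31.5% of all genes were lower and 31.8% higher. The immediate early genes summed to 747 to 999 CPM in Pdgfra+, 658 to 865 in DP and 385 to 583 in Oct4+ libraries, and their part in the Klf6 difference was not tested.

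The single-cell libraries showed the members by cell state. Cells were clustered without any Klf or Sp gene (9 such genes were left out), and the 9 clusters were named from marker genes. The epiblast-like clusters, led by Cdx1/Mylpf (2309 cells) and Calcoco2/Gm40987 (1311 cells), came wholly from the library without 4OHT. Endoderm-like cells were those of the clusters led by Amn/Cubn (660 cells without and 3 with 4OHT), Car4/Pitx1 (438 and 2150) and Gkn1/Gkn2 (88 and 2434). A cluster led by Clu/Acta2 (107 and 1443 cells, 2.11% and 23.0% of each library) scored under the naming threshold, which was set after the data were seen, and stayed unnamed, with the 13 endoderm genes summed to 10290 and 9902 CPM. Small clusters were trophectoderm-like (22 and 201 cells, led by Mt2/Cidea), two-cell-like (123 and 4 cells) and feeder fibroblast-like (19 and 31 cells). Pou5f1, the targeted gene, was at 14.0 CPM (95% Poisson interval 12.4 to 15.8) in all endoderm-like cells without and 2.04 CPM (1.71 to 2.42) with 4OHT. Of its 268 UMIs without 4OHT, 244 were in the Amn/Cubn cluster, which held only 3 cells with 4OHT. It was at 4.03 (2.58 to 5.99) without and 1.06 CPM (0.76 to 1.44) with 4OHT in the Car4/Pitx1 cluster. In the Gkn1/Gkn2 cluster it was at 0 (0 to 4.12) and 3.51 CPM (2.83 to 4.31), and so not lower with 4OHT. A 3′ tag outside the deleted part would not report the deletion. With 1 library per condition no test was possible, and every interval below covers counting error only.

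Within the library without 4OHT, 3620 epiblast-like and 1186 endoderm-like cells were compared. Klf2 was at 273 CPM (95% Poisson interval 269 to 277) in epiblast-like and 10.5 (9.11 to 12.1) in endoderm-like cells, a ratio of 26.0 (counting interval 22.6 to 30.0). That endoderm-like level was 3.85% of the epiblast-like one, and among the 11 epiblast markers the same share ran from 2.90% (Fgf4) to 119% (Dnmt3l) with a median of 3.99%. The Klf2 share was near those of Nanog (3.53%), Sox2 (3.04%) and Tdgf1 (3.57%). The level of free RNA from epiblast-like cells was not estimated, and its part in the endoderm-like Klf2 level was not tested. Klf6 went the other way, at 10.2 CPM (9.45 to 10.9) in epiblast-like and 104 (99.2 to 108) in endoderm-like cells. Its epiblast-like level was 9.81% of the endoderm-like one, above the 0.709% to 2.52% of the 13 endoderm markers. Klf3 and Klf10 were higher in epiblast-like cells, by 3.43 (3.14 to 3.76) and 2.53 (2.21 to 2.91) fold, and Klf5 and Klf9 were at 0.522 (0.508 to 0.538) and 0.591 (0.568 to 0.614) of the endoderm-like level. Klf4 at 1.49 (1.44 to 1.55, and at a log2 ratio of -0.15 without the Amn/Cubn cluster) and Klf13 at 1.02 (0.941 to 1.10) stayed within 1.5-fold. In all, 6 of 8 members were past 1.5-fold, 3 in each direction, where 51.6% of all genes were (21.9% higher and 29.7% lower in epiblast-like cells). Without the Amn/Cubn cluster, 4 members were past 1.5-fold, and Klf5 and Klf9 lay on the other side of 1, at log2 ratios of 0.16 and 0.24. For that choice of cells the share of all genes was not counted.

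Shares of cells followed the same pattern. After thinning each cell to 5000 UMIs, which left out 11 epiblast-like and 18 endoderm-like cells, a Klf2 UMI was seen in 63.4% (exact binomial interval 61.8% to 65.0%) of epiblast-like and 3.94% (2.90% to 5.22%) of endoderm-like cells. Unthinned, at medians of 18942.5 and 14965 UMIs, the shares were 90.2% and 10.3%. A Klf6 UMI was in 4.82% (4.15% to 5.57%) of thinned epiblast-like and 36.5% (33.7% to 39.3%) of thinned endoderm-like cells, and in 16.2% and 69.5% unthinned. Klf2, Klf4 and Klf5 were seen in the same thinned cell in 20.4% of 3609 epiblast-like cells and 1.80% of 1168 endoderm-like cells. Klf4 with Klf5 were together in 32.0% and 33.6%.

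**Figure D3:**
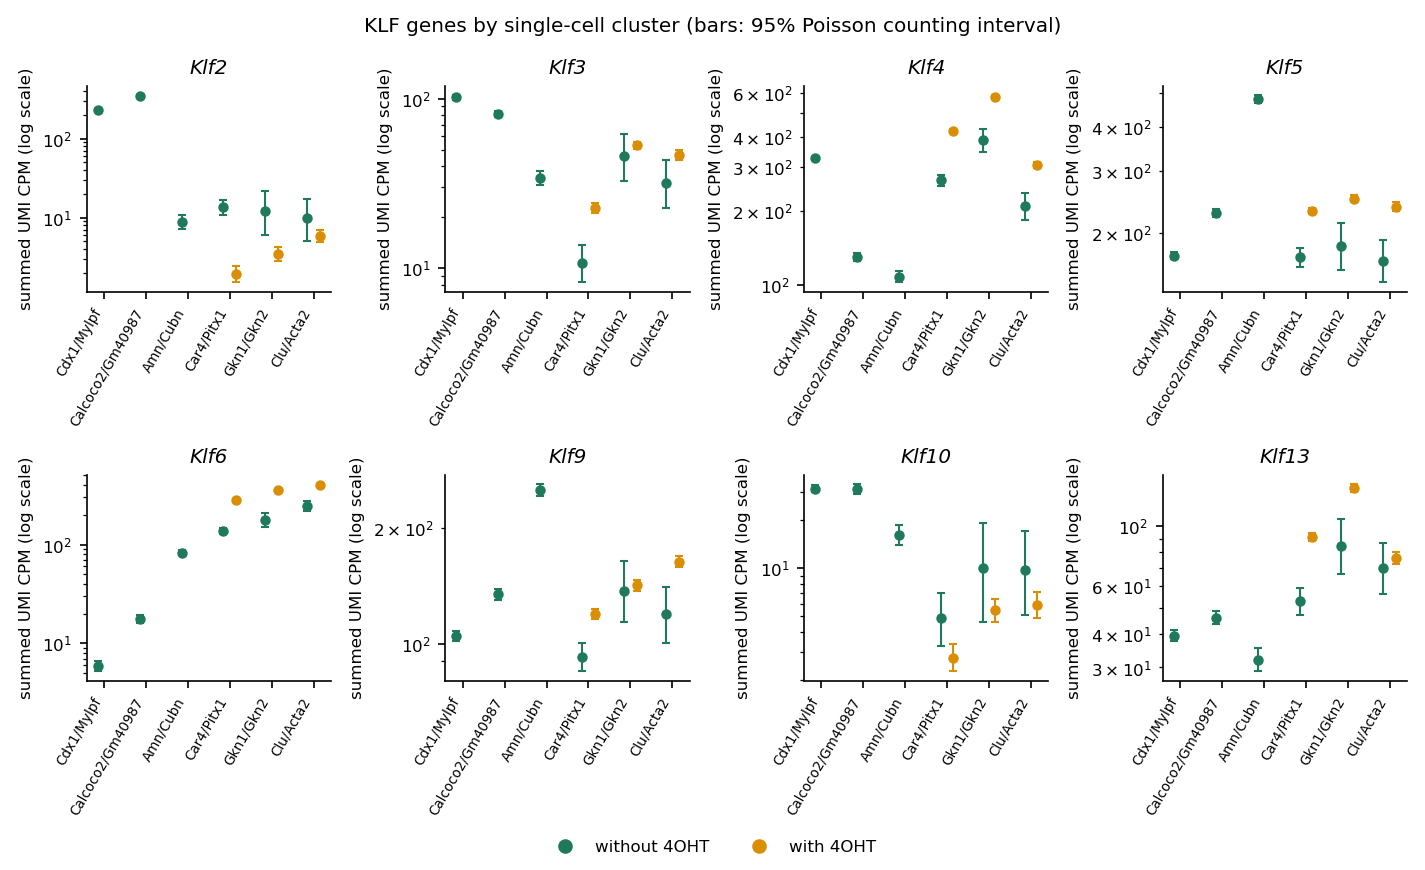
Summed UMI counts scaled to CPM (y axes, log scale) of the 8 KLF genes in 6 clusters (x axes) without 4OHT (green) and with 4OHT (orange). Bars are 95% Poisson intervals, and only points from 20 or more cells are drawn. Klf2 stands highest in both epiblast-like clusters at the left, Klf6 lowest there, and Klf5 and Klf9 highest in the Amn/Cubn cluster.

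The 2 epiblast-like clusters were not alike in their KLF levels. Klf4 was at 326 CPM (95% Poisson interval 321 to 332) in the Cdx1/Mylpf and 130 (126 to 134) in the Calcoco2/Gm40987 cluster, a ratio of 2.51 (counting interval 2.42 to 2.61). Klf2 was the other way round, at 231 (227 to 235) against 346 (339 to 353), a ratio of 0.668 (0.649 to 0.687). Klf6 was at 5.89 against 17.6. Klf2, at 1.497-fold, and the other 5 members differed by less than 1.5-fold. The share of all genes past 1.5-fold between these clusters was not counted. The 123 two-cell-like cells had the highest Klf2 of the clusters with 20 or more cells, at 521 CPM (491 to 552), with Klf9 at 272 (251 to 295) and Klf13 at 17.8 (12.6 to 24.4), the lowest of these clusters.

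Among endoderm-like cells without 4OHT, the Amn/Cubn cluster stood apart from the rest. These genes encode a receptor pair of visceral endoderm, and both were also higher in DP than in Pdgfra+ cells (by 2.02 on the log2 scale, SE 0.43, edgeR adjusted p = 0.0288 for Amn and 1.91, SE 0.49, adjusted p = 0.0463 for Cubn), as the only ones of 13 endoderm markers that were called. Klf5 was at 481 CPM (95% Poisson interval 468 to 493) in Amn/Cubn cells, 2.78 times (counting interval 2.61 to 2.96) its level in other endoderm-like cells. Klf9 was at 251 (242 to 260), 2.56 times (2.35 to 2.78) that level. Klf10 was 2.93 (2.06 to 4.26) and Klf3 2.24 (1.801 to 2.796) times as high, although Klf3 was not above the Gkn1/Gkn2 cluster, at 0.748 (0.542 to 1.06) of its level, and the interval of Klf10 against that cluster held 1 (1.62, 0.834 to 3.58). The other 4 members were lower, Klf4 at 0.385 (0.358 to 0.413), Klf6 at 0.584 (0.534 to 0.638), Klf13 at 0.565 (0.490 to 0.651) and Klf2 at 0.662 (0.497 to 0.884) of the level in other endoderm-like cells. All 8 were thus past 1.5-fold, or 7 without Klf2, where 37.3% of genes were (13.0% higher and 24.3% lower in Amn/Cubn cells). Outside the Amn/Cubn cluster the endoderm-like Klf2 level was 4.91% of the epiblast-like one, within the 2.74% to 17.9% of the 11 epiblast markers. Klf5, Klf9, Klf10 and Klf3 were also the members besides Klf2 whose DP libraries all lay above the Pdgfra+ libraries. The 2 comparisons use different lines and sorts, and no test joins them.

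**Figure D4:**
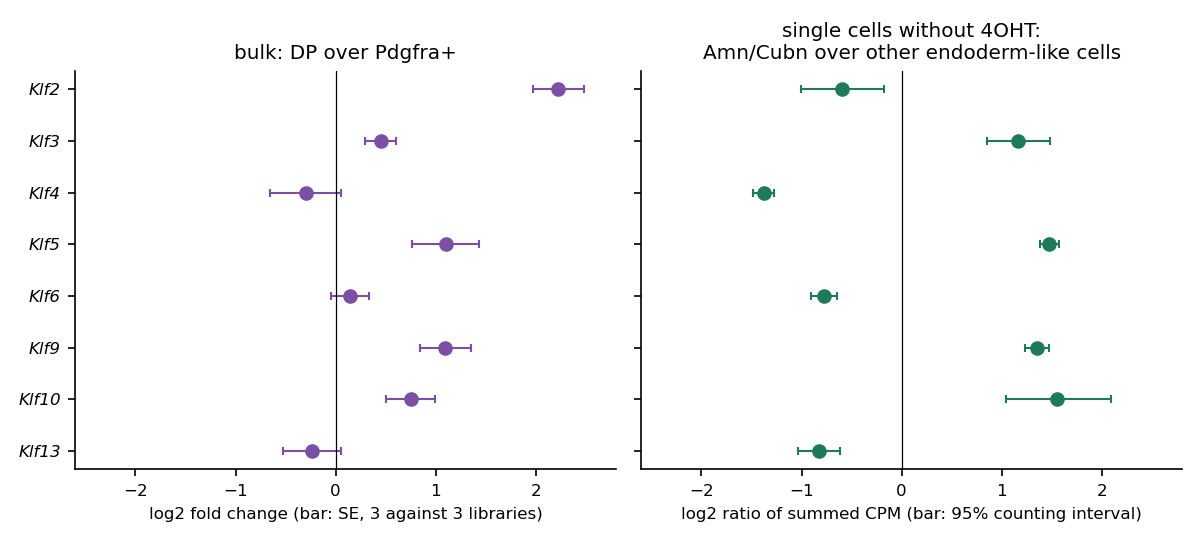
The 8 KLF genes (y axis) in DP over Pdgfra+ bulk libraries (left, log2 fold change with SE) and in Amn/Cubn cells over other endoderm-like cells without 4OHT (right, log2 ratio of summed CPM with 95% counting interval). Klf3, Klf5, Klf9 and Klf10 lie right of 0 in both panels, whereas Klf2 lies right of 0 in bulk and left of it in the single cells.

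The last comparison asked what differed with 4OHT. The Car4/Pitx1 cluster, with 438 cells without and 2150 with 4OHT, allowed it within 1 cluster, at medians of 12638 and 16515 UMIs per cell. Whether the cells of the 2 libraries in it were of one kind was not tested. There Klf6 was at 136 CPM (95% Poisson interval 127 to 146) without and 285 (279 to 290) with 4OHT, a ratio of 2.09 (counting interval 1.95 to 2.25). Klf3 was at 10.7 (8.27 to 13.7) and 22.7 (21.2 to 24.3), a ratio of 2.12 (1.64 to 2.77). Klf4 was at 266 (253 to 279) and 424 (417 to 430), a ratio of 1.59 (1.51 to 1.68), and Klf13 at 52.7 (47.0 to 58.8) and 91.0 (88.0 to 94.1), a ratio of 1.73 (1.54 to 1.95). Klf5 and Klf9 stayed within 1.5-fold at 1.35 (1.27 to 1.44) and 1.30 (1.19 to 1.42). Klf2 was lower with 4OHT, at 13.6 CPM (10.8 to 16.9) without and 1.94 (1.52 to 2.43) with it, and so was Klf10, at 4.86 (3.26 to 6.99) and 2.76 (2.26 to 3.34). In that cluster 6 of 8 members were past 1.5-fold, 4 higher and 2 lower with 4OHT (Klf2 and Klf10), where 13.2% of genes were (10.0% higher and 3.17% lower). The library with 4OHT held no epiblast-like cell, and the part of their free RNA in the Klf2 and Klf10 levels without 4OHT was not tested. Immediate early genes summed to 794 CPM without and 1105 with 4OHT in the same cluster, and their part in the Klf6 ratio was not tested either.

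In the Gkn1/Gkn2 cluster, with 88 cells without 4OHT, the ratios were 2.00 (counting interval 1.71 to 2.36) for Klf6, 1.5 (1.35 to 1.67) for Klf4, 1.63 (1.30 to 2.07) for Klf13 and 0.286 (0.153 to 0.594) for Klf2. In the unnamed Clu/Acta2 cluster Klf6 had a ratio of 1.62 (1.45 to 1.83) and Klf4 one of 1.47 (1.29 to 1.67). Klf6, Klf4 and Klf5 had counting intervals above 1 in all 3 clusters and in the trophectoderm-like cluster, where the ratios were 2.19 (1.39 to 3.67), 2.06 (1.44 to 3.04) and 1.96 (1.26 to 3.24). The trophectoderm-like cluster held only 22 cells without 4OHT, with 19, 31 and 20 UMIs of Klf6, Klf4 and Klf5. Its 2 sides differed in make-up. Endoderm markers summed to 542 CPM without and 3023 with 4OHT, and epiblast markers to 2176 and 716. The interval of Klf3 was above 1 in 3 of the 4 clusters, and that of Klf13 in 3. The share of all genes with such intervals was not counted. Past 1.5-fold, more genes were higher than lower with 4OHT in the Car4/Pitx1 cluster (10.0% and 3.17%), so these counts of members have no background of their own.

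Over all endoderm-like cells, 1186 without and 4587 with 4OHT, 7 of 8 members were past 1.5-fold, where 34.3% of genes were (24.0% higher and 10.4% lower with 4OHT). Klf6 at a ratio of 3.01 (counting interval 2.87 to 3.15), Klf4 at 2.85 (2.75 to 2.95) and Klf13 at 2.68 (2.49 to 2.89) were higher. Klf2 at 0.244 (0.198 to 0.301), Klf10 at 0.311 (0.259 to 0.373), Klf5 at 0.646 (0.628 to 0.664) and Klf9 at 0.656 (0.632 to 0.682) were lower. Different clusters held most endoderm-like cells of the 2 libraries, Amn/Cubn without and Gkn1/Gkn2 and Car4/Pitx1 with 4OHT. Without the Amn/Cubn cluster, Klf5 and Klf9 turned to log2 ratios of 0.47 and 0.39, and 5 members were past 1.5-fold. The share of all genes past 1.5-fold without that cluster was not counted, so the 5 have no background. The direction of Klf2, Klf4, Klf6, Klf10 and Klf13 was the same in the pooled class and in each of the Car4/Pitx1, Gkn1/Gkn2 and Clu/Acta2 clusters, although the intervals of Klf2, Klf10 and Klf13 in Clu/Acta2 and of Klf10 in Gkn1/Gkn2 held 1. Klf3, at a pooled ratio of 1.27 (1.16 to 1.40), was lower with 4OHT under several other settings, down to a log2 ratio of -0.61 at a finer clustering.

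**Figure D5:**
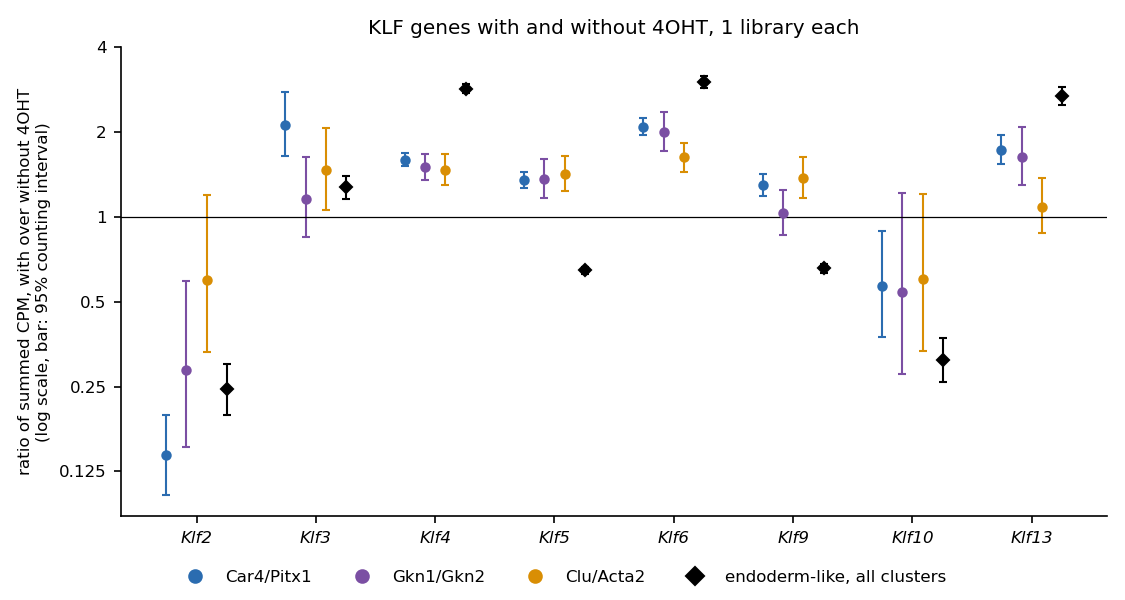
Ratio of summed CPM with over without 4OHT (y axis, log scale, bars are 95% counting intervals) for the 8 KLF genes (x axis), in 3 clusters (circles) and in all endoderm-like cells (black diamonds). Klf4, Klf5 and Klf6 lie above 1 in each cluster, while the diamonds of Klf5 and Klf9 lie below 1 at 0.646 and 0.656.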

How the data were processed

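Bulk libraries were made from sorted fractions with a directional kit and sequenced single-end. The authors deposited raw counts per gene, while for their aligner, counter and build the sources used here give no name. The deposited single-cell matrices hold UMI counts made with Cell Ranger 6.1.2 against mm10, per the file headers and the submitters' processing notes. The 8 members and all gene lists were chosen with earlier results of these data known. Named genes were the members, the 2 genes nearest to each, up to 4 called genes per list and comparison, Pou5f1 and Pdgfra. A few others (Klf1, Klf7, Klf11, Klf14, Klf16, Klf17, Stat3, Socs3, Bcl3, Ctbp1 and single markers) were chosen after their values were seen.

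Counts of 48952 genes (35 blank lines were left out) were filtered with filterByExpr, scaled by TMM and tested with edgeR 4.0.16 (quasi-likelihood, R 4.3.3) over all 9 libraries, with Benjamini-Hochberg adjustment over 14185 genes and a threshold of 0.05. Fold changes came from this fit at its default prior count. The log2 CPM values used for the nearest genes and for the deviations of replicates had a prior count of 2. No pair of replicates agreed within sampling noise (chi-square per degree of freedom 16.7 to 36.6). Deviations of same-numbered libraries correlated at 0.327 to 0.598 across genes between DP and Pdgfra+ (3 pairs, with other pairs at -0.398 to 0.126). In the other comparisons they correlated at -0.104 to 0.196. The numbers were thus read as pairs for DP and Pdgfra+ only. The main fit held the group alone and no replicate block, so its p-values between DP and Pdgfra+ leave this pairing out. Fits with the block are given beside it as alternatives. In counts simulated for the DP and Pdgfra+ comparison over 13786 genes, 29.5% of genes set to change 2-fold and 71.4% of those set to 4-fold were found. Bulk depth was 8019631 to 11642571 reads per library.

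Cells with at least 1500 genes and at most 10% mitochondrial counts were kept. Scrublet marked 190 doublets (3.61%) without 4OHT, which were removed, and 0 with 4OHT, so that doublets were not removed there and the caller was taken not to have worked, which its scores were not examined to settle. Both libraries were normalized to 10000 counts, and 2000 variable genes, less Klf and Sp genes, 20 components, 15 neighbours and Leiden clustering at resolution 0.5 (scanpy 1.11.5) gave the clusters. A cluster took the class whose markers had the highest mean log2 excess over the other cells, if above 0.5, a rule chosen after the data were seen. Of 14179 barcodes deposited, 11343 were used, and 17 barcodes of these cells occurred in both libraries. Levels were summed UMI counts scaled to CPM, with exact Poisson intervals, and ratios had exact conditional intervals at 95%. Genes at 5 CPM or more in either group were the background. Alternatives were DESeq2 1.42.0, other scalings and filters, other cell filters and clusterings, and leaving out libraries.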

Additional observations from a re-analysis of the deposited data

How the results depend on the processing

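Klf2 in all 3 comparisons, Klf6 in both comparisons with Oct4+ cells and Klf3 between Oct4+ and Pdgfra+ cells kept their calls and directions under the 16 other fits, and all but Klf3 also with a log2 fold change over 1.5 asked for. Between DP and Pdgfra+ cells the 2 members called became 4 with DESeq2, 4 without the filter on low counts, 4 with the replicate block over 9 libraries and 4 with that block over the 6 libraries compared. A log2 fold change over 1.5 asked for as well left 1 member there, 2 between DP and Oct4+ cells and 2 between Oct4+ and Pdgfra+ cells. Leaving out 1 library gave 1 to 3, 2 to 4 and 3 to 5 members in the 3 comparisons. For the comparisons with Oct4+ cells, whose libraries share only a number, the replicate block over 9 libraries gave 4 (DP) and 6 (Pdgfra+), adding Klf4 and Klf10, and over 6 libraries 3 and 5. The cause of these shifts was not tested.

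Directions turned for values near 0. Klf13 between DP and Oct4+ cells had a log2 fold change of -0.0042, which was 0.0337 without the filter, 0.0172 with the 6 libraries compared and -0.2107 to 0.2166 without 1 library. Without 1 library, Klf13 between DP and Pdgfra+ cells ran from -0.4968 to 0.0063, Klf10 between DP and Oct4+ cells from -8e-04 to 0.4416, and Klf5 between Oct4+ and Pdgfra+ cells from -0.3506 (without Oct4+ replicate 1) to 0.4773. The pooled 4OHT log2 ratios of Klf5 and Klf9 turned to 0.4334 and 0.3745 in the Car4/Pitx1 cluster alone and to 0.468 and 0.3892 without the Amn/Cubn cluster, and their epiblast-like to endoderm-like log2 ratios to 0.1623 and 0.2387 without it. These cluster choices, a run with the Clu/Acta2 cluster and one with equal doublet removal were added after the data were seen. Counts of members past 1.5-fold stayed within 5 to 8 and 4 to 7 in the 2 single-cell comparisons.

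With 3 libraries a fraction, changes of 2-fold were often missed in counts simulated for DP against Pdgfra+ cells. Detection in the comparisons with Oct4+ cells was not simulated. Without replicates the single-cell ratios have no error beyond counting.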
